A study of Homo sapiens with 9 samples.

Results

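This account covers 33 p53 target genes in HepG2 cells exposed to tris(2-butoxyethyl) phosphate (TBOEP). The genes were chosen by name as well known transcriptional targets of p53 and were matched to the gene names of the deposited tables. All 33 were found among 57773 annotated features, and all 33 had enough reads to be among the 12901 genes tested. The values used were the reads assigned to each gene in 9 libraries.

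HepG2, a widely used line from a human liver tumour, still makes many hepatocyte proteins. TBOEP belongs to the organophosphate esters and serves as a plasticiser, a floor polish additive and a flame retardant. Cells were exposed for 72 h to 125 µM TBOEP, to 2.5 µM TBOEP or to the solvent alone, with 3 libraries in each group, and all 3 groups, the controls included, received 0.1% DMSO. Each library came from cells that were seeded, treated, extracted and sequenced apart from the others, per the labels, which describe both concentrations as without cytotoxicity. A single line and a single exposure time were used, and the cells were of under 25 passages.

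The transcription factor p53 is held at a low level by MDM2, a ubiquitin ligase that marks it for destruction and is itself a p53 target. When DNA damage or other stress frees p53 from MDM2, it binds response elements near its targets and raises genes that stop the cell cycle, repair DNA, restrain growth or start cell death. Many of these genes also answer to other transcription factors, and some, such as MDM2 and PPM1D, feed back to lower p53 activity. In the liver p53 is known for roles in damage responses, metabolism and tumour suppression.

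A p53 response element is 2 decamers side by side. In the consensus each has a core of a C, 2 letters that are A or T, and a G. Purines stand before the core and pyrimidines after it. The elements near these genes are shown because p53 acts on its targets through them. The p53 consensus was searched for within 2500 bases on either side of each gene's start, on GRCh37, with the 2 decamers adjacent, every core C and G in place and at most 2 of the other 16 letters off. The start is the outer end of the deposited gene region, and start sites of single transcripts were not used, so distances can differ from those to a main promoter. The consensus reads the same on both strands, so both were searched at once. An element was found for 15 of the 33 members (45.5%), against 419 of 11139 tested genes with a known strand (3.76%). With no letter off it was found for PLK2 and ZMAT3 (2 of 33), against 6 of 11139 tested genes. The elements of some of these members are given on the strand of the gene, 5′ to 3′, with the core of each decamer in capitals. CCNG1 had 2 elements, and the one with fewer letters off is given. PLK2 and ZMAT3 lie on the minus strand.
PLK2 (chr5:57758101-57758120, 2024 bases upstream of the start): aaaCATGcctggaCTTGccc
ZMAT3 (chr3:178787976-178787995, 2081 bases downstream): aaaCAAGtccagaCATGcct
DDB2 (chr11:47236520-47236539, 36 bases downstream): aagCTGGtttgaaCAAGccc
SPATA18 (chr4:52918123-52918142, 635 bases downstream): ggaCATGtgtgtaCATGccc
MDM2 (chr12:69202703-69202722, 756 bases downstream): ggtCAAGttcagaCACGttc
CDKN1A (chr6:36644226-36644245, 70 bases upstream): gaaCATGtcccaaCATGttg
CCNG1 (chr5:162864932-162864951, 366 bases downstream): gcaCAAGcccaggCTAGtcc
BAX (chr19:49458470-49458489, 407 bases downstream): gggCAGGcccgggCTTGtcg
GADD45A (chr1:68152458-68152477, 1723 bases downstream): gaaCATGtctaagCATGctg
Elements were also found for AEN, BTG2, FAS, PMAIP1, RRM2B and TNFRSF10B. A match is a stretch of letters and was not measured as bound by p53 here, and these targets are in part known by such elements. At 125 µM, described below, 5 of the 11 members that fell and 2 of the 4 that rose had an element by this search.

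The libraries held 2480964 to 11885877 gene reads, and the members took 0.160 to 0.182% of them. Markers of the hepatocyte lineage were present in every library, and their summed level was 65124 to 88428 CPM (CPM being reads scaled to the library's gene reads by TMM) in controls, 53351 to 65770 at 2.5 µM and 38364 to 45196 at 125 µM. Of fibroblast markers COL1A2, DCN and LUM were at 0 in all libraries, as were KDR of endothelial cells and PTPRC, CD3E and HBB of blood cells. The 6 fibroblast markers summed to 19.98 to 23.9 CPM in controls, 18.2 to 26.8 at 2.5 µM and 9.63 to 13.6 at 125 µM, and PDGFRB made up nearly all of it. The 7 blood and immune markers summed to 2429 to 3076 CPM in controls, 2526 to 2873 at 2.5 µM and 1861 to 2061 at 125 µM, nearly all of it from the lysozyme gene LYZ. Endothelial markers summed to 2.97 to 5.56 CPM in controls, 3.35 to 5.25 at 2.5 µM and 13.6 to 17.3 at 125 µM. The share of nuclear gene reads that came from introns averaged 6.87% ± 0.628 in controls, against 6.00% ± 1.52 and 5.23% ± 0.298 at 2.5 and 125 µM (SD, n = 3 each). These values moved with the groups, and their part in the results on the members was not tested. In bulk RNA, fewer cells with a transcript and less of it per cell cannot be told apart.

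In the control cultures the members spanned a wide range of levels per exon length, given here as deposited RPKM (reads scaled by exon length and library depth). CCNG1, which encodes cyclin G1, had the highest mean at 52.7 ± 5.22 RPKM (SD, n = 3), followed by the membrane protein gene PERP at 50.6 ± 1.11 and the death receptor gene TNFRSF10B at 41.5 ± 2.09. CDKN1A, which encodes the cyclin-dependent kinase inhibitor p21, had the fifth highest mean at 27.2 ± 2.25 RPKM. The lowest were PMAIP1, which encodes the death protein NOXA, at 0.801 ± 0.262 RPKM, and the antiviral TRIM22 at 0.373 ± 0.078. The median over members was 7.56 RPKM against 3.71 over all tested genes, and 23 of 33 members lay above the latter. In this order the ranges of neighbouring members overlapped in 24 of 32 pairs, so most neighbours do not differ beyond their spread.

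**Figure D1:**
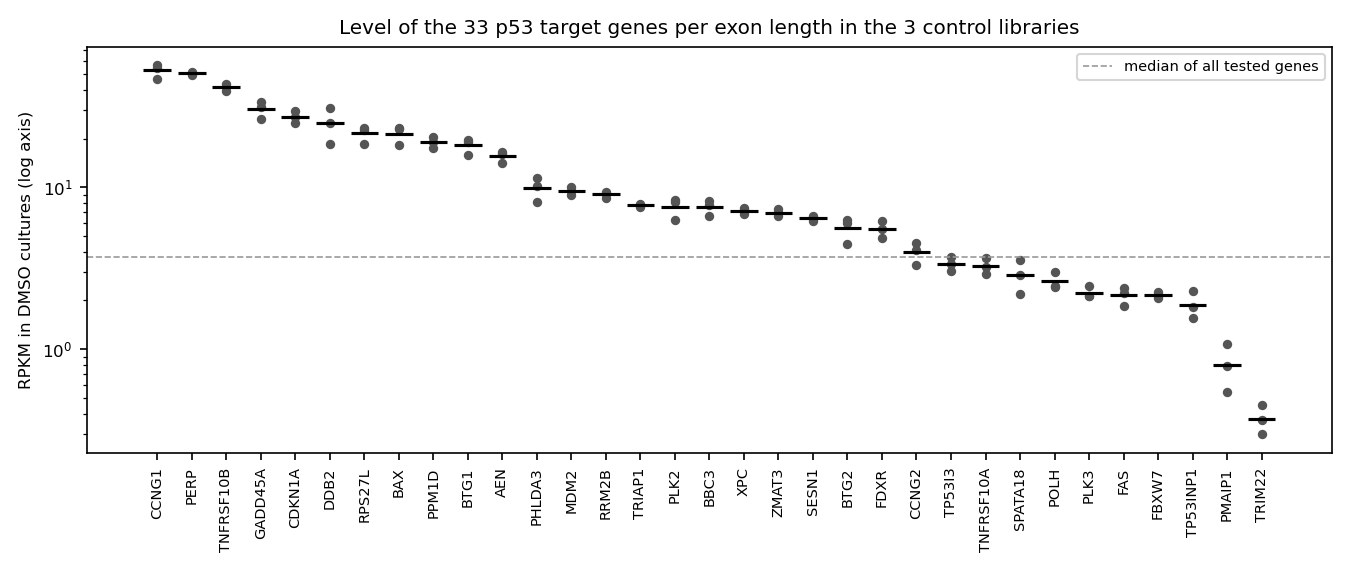
RPKM (log axis) of the 33 p53 target genes in the 3 DMSO control libraries, as points, with the mean as a bar and the median of all tested genes (3.71 RPKM) as a dashed line. CCNG1, PERP and TNFRSF10B have the highest means and PMAIP1 and TRIM22 the lowest, and 23 members have means above the dashed line.

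The first comparison asked how 72 h at 125 µM TBOEP changed these genes relative to solvent. PPM1D, TP53INP1, SPATA18, DDB2 and PLK2 fell, with log2 fold changes from -1.75 (TP53INP1) to -0.95 (PLK2), whereas CDKN1A, BAX and BBC3, the targets most often read as signs of p53-driven arrest and death, did not pass the test. MDM2, PLK3, TNFRSF10B and TP53I3 rose, by at most 0.65 on the log2 scale. In edgeR's quasi-likelihood test with Benjamini-Hochberg adjustment over all tested genes and a threshold of 0.05, 4 of the 33 members rose (12.1%) where 20.3% of all tested genes did. In the same test 11 members fell (33.3%) where 19.9% of all tested genes did, and 18 did not pass. The median log2 fold change was -0.20 over the members and 0.00356 over all tested genes. The 125 µM and control libraries did not overlap in 16 members, 48.5% of them, against 50.9% of all tested genes. Every log2 fold change below is from this fit and is given with its SE, and gene positions are on hg19.

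**Figure D2:**
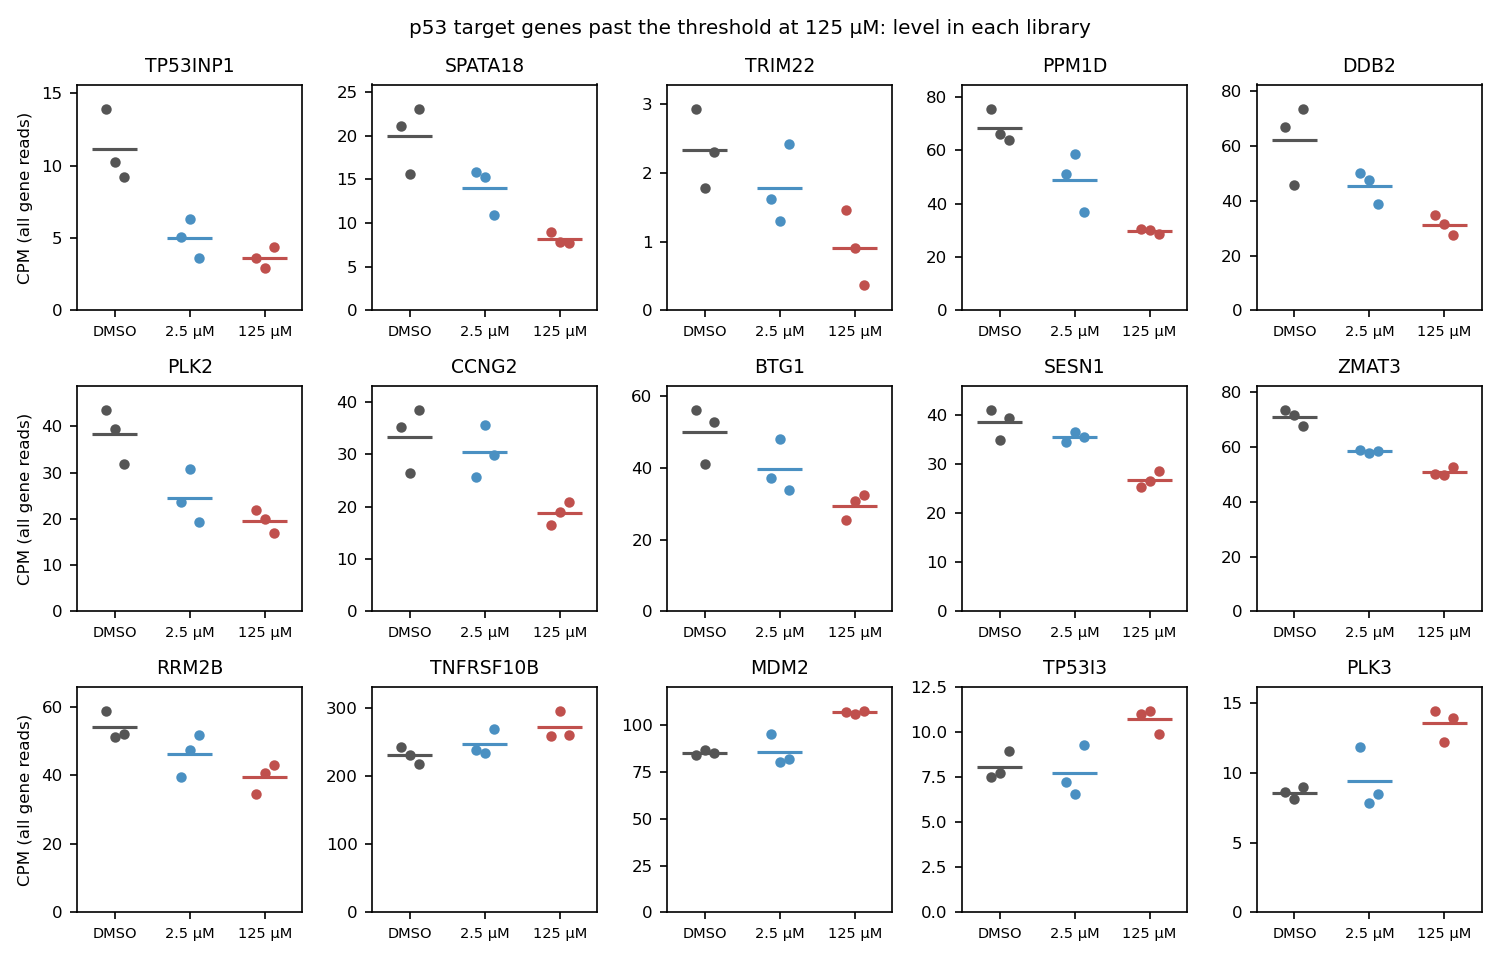
Level (CPM of all gene reads, axes from 0) of the 15 p53 target genes past the threshold at 125 µM, in each of the 9 libraries, with points for libraries and a bar for the mean of each group of 3. The panels run from the largest fall, TP53INP1, to the largest rise, PLK3, and in all 15 the 125 µM points do not overlap the DMSO points.

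Among the 10 members that arrest the cell cycle or feed back on p53, 4 fell, 2 rose and 4 did not pass. The shares that fell and rose were 40 and 20%, against 19.9 and 20.3% of all tested genes. PPM1D encodes the phosphatase WIP1, which removes activating phosphates from p53 and its kinases (chromosome 17, 58677544 to 58741849). Its levels were 75.5, 65.9 and 63.6 CPM in controls, 50.9, 58.5 and 36.8 at 2.5 µM and 30.5, 30.2 and 28.6 at 125 µM. The 3 groups did not overlap, and the 125 µM libraries lay closest together. Its log2 fold change at 125 µM was -1.20 ± 0.13 (adjusted p = 1.7e-05, edgeR), a 2.29-fold fall. MDM2 (chromosome 12, 69201956 to 69239214), the ligase that opposes p53, stood at 83.9, 86.5 and 85.2 CPM in controls, 95.1, 80.4 and 81.6 at 2.5 µM and 107, 106 and 108 at 125 µM. All 125 µM libraries were above all others, and the 2.5 µM and control libraries overlapped. MDM2 rose by 0.32 ± 0.09 at 125 µM (adjusted p = 0.0078, edgeR), but the call was lost when the test was set against a 1.2-fold change. MDM2 overlaps the carboxypeptidase gene CPM, which had few reads beside it (408 against 6076).

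PLK2 and PLK3, related polo-like kinases of the stress response, moved in opposite directions. PLK2 (chromosome 5, 57749809 to 57756087) stood at 43.6, 39.4 and 31.8 CPM in controls, 23.6, 30.8 and 19.4 at 2.5 µM and 22.0, 20.1 and 16.9 at 125 µM. Both TBOEP groups lay below all controls and overlapped each other. PLK2 changed by -0.95 ± 0.16 at 125 µM (adjusted p = 0.00035, edgeR). PLK3 (chromosome 1, 45265897 to 45271662) stood at 8.60, 8.11 and 8.98 CPM in controls, 11.9, 7.81 and 8.48 at 2.5 µM and 14.4, 12.2 and 13.9 at 125 µM. Only the 125 µM libraries lay apart from the controls, since the first 2.5 µM library was high and the other two were not. PLK3 rose by 0.65 ± 0.18 (adjusted p = 0.011, edgeR), and on the authors' quantile-normalised signal the adjusted p was 0.0548 with limma.

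CCNG2 encodes cyclin G2, an atypical cyclin linked to arrest (chromosome 4, 78078304 to 78354542), and stood at 35.1, 26.3 and 38.5 CPM in controls, 25.6, 35.5 and 29.9 at 2.5 µM and 16.5, 18.9 and 20.9 at 125 µM. The 125 µM libraries were the 3 lowest, and the other groups overlapped. CCNG2 changed by -0.85 ± 0.16 at 125 µM (adjusted p = 0.00084, edgeR). BTG1, an antiproliferative partner of the mRNA deadenylation complex (chromosome 12, 92536286 to 92539673), stood at 56.2, 41.2 and 52.8 CPM in controls, 37.2, 48.0 and 33.9 at 2.5 µM and 25.5, 30.6 and 32.3 at 125 µM. Its 125 µM libraries were again the 3 lowest, with the other groups overlapping. BTG1 changed by -0.79 ± 0.15 (adjusted p = 0.00076, edgeR), while its relative BTG2 had -0.40 ± 0.18 and did not pass (adjusted p = 0.097, edgeR). BTG2 passed without control library 2, at -0.56, and on exon reads, at -0.48.

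CDKN1A (chromosome 6, 36644305 to 36655116) stood at 106, 88.4 and 84.7 CPM in controls, 68.4, 86.5 and 76.3 at 2.5 µM and 85.8, 98.3 and 85.2 at 125 µM. Its 125 µM libraries lay within the range of the controls. Its log2 fold change was -0.05 ± 0.11 (adjusted p = 0.74, edgeR), with a 95% interval from -0.29 to 0.18. The other arrest and feedback genes that did not pass were GADD45A, a stress sensor that aids repair and arrest, at -0.22 ± 0.11 (adjusted p = 0.11, edgeR), and CCNG1 at -0.23 ± 0.12 (adjusted p = 0.15, edgeR). The CCNG1 call changed without control library 2, where it fell by 0.33, and on exon reads alone, where it fell by 0.29.

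Of the 11 members that act in cell death, 1 rose and 1 fell (9.09% each, against 20.3 and 19.9% of all tested genes) and 9 did not pass. The fall was the largest of all members: TP53INP1, a stress protein that acts in autophagy and cell death (chromosome 8, 95938200 to 95961639), stood at 13.9, 10.3 and 9.24 CPM in controls, 5.07, 6.32 and 3.64 at 2.5 µM and 3.64, 2.90 and 4.40 at 125 µM. All TBOEP libraries lay below all controls, and the TBOEP groups overlapped. The log2 fold change was -1.75 ± 0.24 at 125 µM (adjusted p = 7.8e-05, edgeR), a 3.35-fold fall. TP53INP1 overlaps NDUFAF6, and whether the counting used strand is not given in the sources used here, so shared reads cannot be told apart. Reads that span its own exon junctions averaged 7.60 CPM in controls, 3.78 at 2.5 µM and 2.61 at 125 µM.

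TNFRSF10B encodes a death receptor for the ligand TRAIL (chromosome 8, 22877646 to 22926692) and stood at 243, 232 and 219 CPM in controls, 239, 235 and 269 at 2.5 µM and 259, 296 and 261 at 125 µM. The 125 µM libraries lay above the controls by less than the range within either group. TNFRSF10B rose by 0.24 ± 0.09 (adjusted p = 0.044, edgeR), and the call was lost in 10 of 23 alternative analyses, among them those without any 1 control library or without 125 µM library 2 or 3, where the log2 fold change ran from 0.17 to 0.27. It overlaps RHOBTB2. The related receptor gene TNFRSF10A had 0.22 ± 0.19 and did not pass (adjusted p = 0.38, edgeR).

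BAX, the pore-forming protein of the mitochondrial death pathway (chromosome 19, 49458072 to 49465055), stood at 68.9, 49.5 and 63.6 CPM in controls, 53.6, 63.9 and 59.0 at 2.5 µM and 59.0, 51.9 and 54.0 at 125 µM. BBC3, which encodes the BAX-activating protein PUMA (chromosome 19, 47724081 to 47736023), stood at 27.9, 23.2 and 21.8 CPM in controls, 23.5, 27.4 and 28.7 at 2.5 µM and 24.5, 25.1 and 35.6 at 125 µM. The groups overlapped for both genes, and a single 125 µM library of BBC3, the third, was above the rest. BAX had a log2 fold change of -0.15 ± 0.12 at 125 µM (95% interval -0.40 to 0.10, adjusted p = 0.34, edgeR). BBC3 had 0.14 ± 0.15 (95% interval -0.18 to 0.47, adjusted p = 0.47, edgeR). The remaining death genes also missed the threshold: PMAIP1 had 0.49 ± 0.30 at under 5 CPM in every library, the death receptor FAS, which overlaps ACTA2, 0.09 ± 0.20, and the nuclease AEN -0.07 ± 0.08. PERP had 0.11 ± 0.11, the Akt inhibitor PHLDA3 -0.20 ± 0.16 and TRIAP1, which restrains cell death, -0.16 ± 0.16.

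Of the 4 members that act in DNA repair and nucleotide supply, 2 fell (50%, against 19.9% of all tested genes) and 2 did not pass. DDB2 and XPC both recognise damaged DNA for nucleotide excision repair. DDB2 (chromosome 11, 47236493 to 47260767) stood at 66.8, 45.9 and 73.6 CPM in controls, 50.3, 47.6 and 38.8 at 2.5 µM and 35.0, 31.4 and 27.5 at 125 µM. The 125 µM libraries were the 3 lowest, and the second control lay within the 2.5 µM range. DDB2 changed by -0.96 ± 0.15 (adjusted p = 0.00023, edgeR). RRM2B, a subunit of the ribonucleotide reductase that supplies nucleotides outside S phase (chromosome 8, 103216730 to 103251346), stood at 58.8, 51.1 and 52.1 CPM in controls, 39.4, 47.4 and 51.7 at 2.5 µM and 34.6, 40.6 and 42.9 at 125 µM. Its 125 µM libraries lay below the controls, and the 2.5 µM libraries overlapped both groups. RRM2B changed by -0.48 ± 0.12 (adjusted p = 0.0049, edgeR), a call that was lost only when tested against a 1.2-fold change, with an adjusted p of 0.0509. XPC, which overlaps LSM3, had -0.33 ± 0.13 and did not pass (adjusted p = 0.061, edgeR), although its 125 µM libraries did not overlap the controls. XPC passed in 6 of 23 alternatives, among them those without control library 2 (-0.42) and without 2.5 µM library 1 or 3 (-0.33 both times). POLH, the polymerase that copies past ultraviolet damage, had -0.04 ± 0.13 and overlaps GTPBP2.

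Of the 4 members for redox balance, mitochondria and growth control, 2 fell, 1 rose and 1 did not pass. The shares that fell and rose were 50 and 25%, against 19.9 and 20.3% of all tested genes. SPATA18, which acts in the removal of damaged mitochondrial proteins (chromosome 4, 52917497 to 52963458), stood at 21.1, 15.6 and 23.1 CPM in controls, 15.9, 15.2 and 10.9 at 2.5 µM and 8.98, 7.88 and 7.71 at 125 µM. The 125 µM libraries were the 3 lowest, and the second control lay within the 2.5 µM range. SPATA18 changed by -1.27 ± 0.18 (adjusted p = 9e-05, edgeR), a 2.41-fold fall. SESN1, a sestrin that restrains mTORC1 (chromosome 6, 109307640 to 109416022), stood at 41.1, 35.0 and 39.5 CPM in controls, 34.6, 36.5 and 35.5 at 2.5 µM and 25.4, 26.5 and 28.6 at 125 µM. Only the 125 µM libraries lay apart, below the rest. SESN1 changed by -0.54 ± 0.10 (adjusted p = 0.00087, edgeR).

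TP53I3, a quinone reductase (chromosome 2, 24300303 to 24308731), stood at 7.55, 7.72 and 8.98 CPM in controls, 7.27, 6.60 and 9.29 at 2.5 µM and 11.0, 11.2 and 9.91 at 125 µM. Every 125 µM library was above every other library. TP53I3 rose by 0.45 ± 0.17 (adjusted p = 0.047, edgeR), and the call was lost in 11 of 23 alternatives, among them those without control library 1 or 2 or without any 1 of the 125 µM libraries, where the log2 fold change ran from 0.39 to 0.49. TP53I3 overlaps FAM228B. FDXR, a mitochondrial electron carrier protein of steroid and iron-sulphur chemistry, had 0.13 ± 0.12 and did not pass (adjusted p = 0.43, edgeR). FDXR passed as higher in 2 of 23 alternatives, and its log2 fold change ran from 0.07 to 0.35 over all 23.

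Of the last 4 members, 2 fell (50%, against 19.9% of all tested genes) and 2 did not pass. ZMAT3, an RNA-binding zinc finger protein that acts on splicing and RNA stability (chromosome 3, 178735011 to 178790067), stood at 73.5, 71.4 and 67.5 CPM in controls, 58.7, 57.7 and 58.6 at 2.5 µM and 50.1, 49.8 and 52.5 at 125 µM. The 3 groups did not overlap, and libraries within a group lay close together. ZMAT3 changed by -0.49 ± 0.08 at 125 µM (adjusted p = 0.00034, edgeR). TRIM22 (chromosome 11, 5710919 to 5758319) had few reads: 28, 9 and 9 in controls (2.94, 1.78 and 2.31 CPM), 17, 14 and 6 at 2.5 µM (1.63, 1.30 and 2.42 CPM) and 12, 11 and 1 at 125 µM (1.46, 0.913 and 0.367 CPM). Its 125 µM libraries were below all controls, and the 2.5 µM libraries overlapped both. It changed by -1.22 ± 0.39 (adjusted p = 0.023, edgeR), but the call rests on few reads and was lost without control library 1 (-0.95), without 125 µM library 2 (-1.07) or without 125 µM library 3 (-1.06), and TRIM22 overlaps TRIM5. RPS27L, a ribosomal protein variant that binds MDM2, had -0.31 ± 0.13 (adjusted p = 0.075, edgeR) and overlaps LACTB. Without control library 2 the RPS27L value was -0.44 and passed, as it did without 2.5 µM library 1 or 2 at -0.31. FBXW7, the substrate receptor of a ubiquitin ligase, had -0.15 ± 0.15 and did not pass (adjusted p = 0.43, edgeR).

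The 18 members that did not pass ranged from -0.40 to 0.49 in log2 fold change, with SE values of 0.08 to 0.30, and 12 of them had negative values. Of the 15 that passed, 9 kept their call in all 23 alternative analyses: PPM1D, TP53INP1, SPATA18, DDB2, ZMAT3, PLK2, BTG1, CCNG2 and SESN1. All 9 had lower levels at 125 µM.

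**Figure D3:**
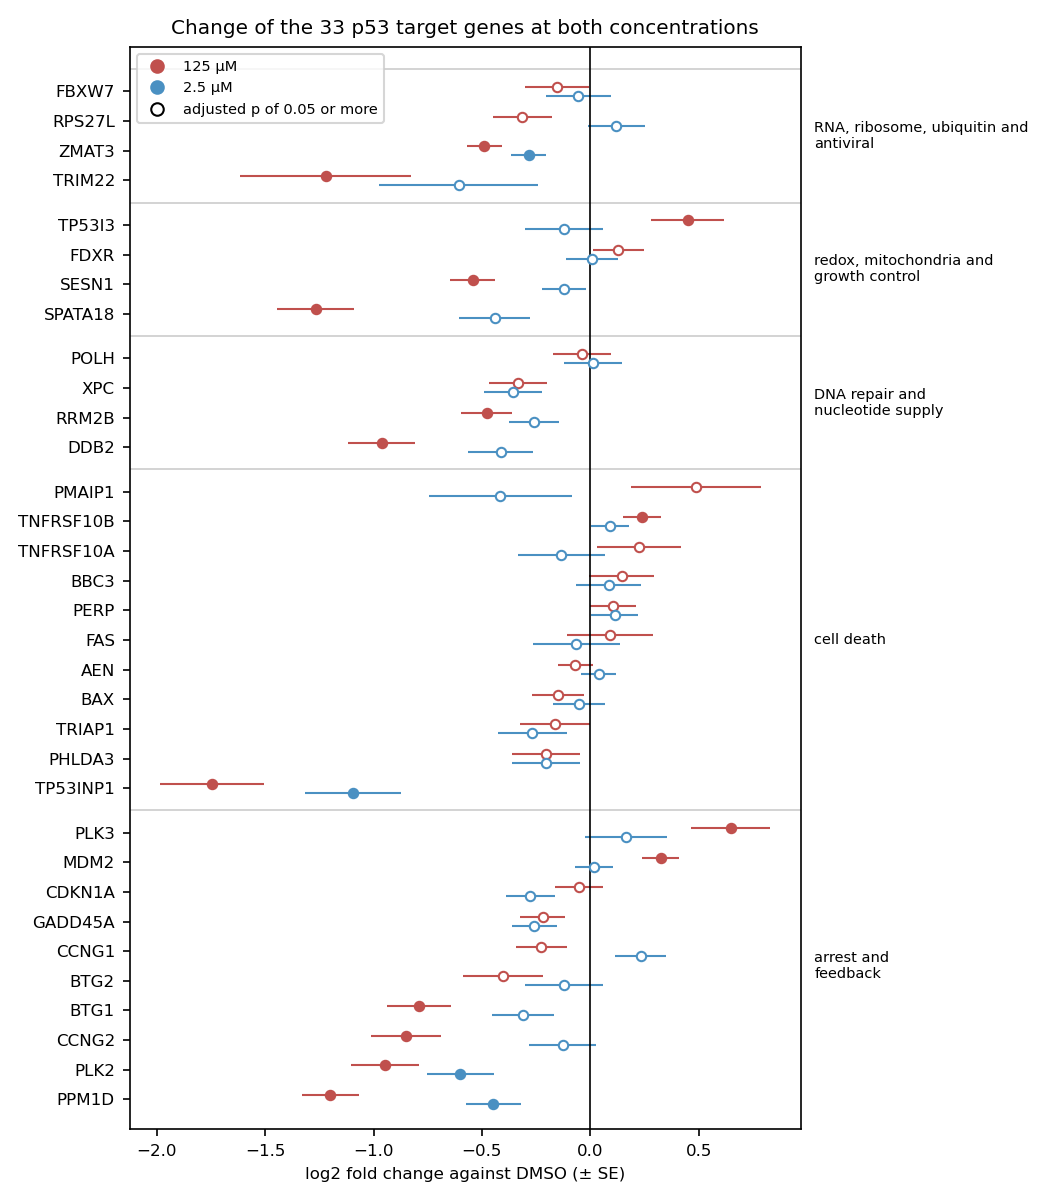
log2 fold change against DMSO (± SE) of all 33 p53 target genes at 125 µM (red) and 2.5 µM (blue), grouped by role, with open points for an adjusted p of 0.05 or more in edgeR's test. The cell death genes other than TP53INP1 lie between -0.42 and 0.49 at both concentrations.

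The second comparison set the low concentration, 2.5 µM, against the same control libraries. None of the members rose (0 of 33, against 6.02% of all tested genes) and 4 fell (12.1%, against 5.03%), by edgeR's quasi-likelihood test. At an unadjusted p of 0.05 the counts were 0 and 11 by edgeR, against 1782 and 1759 of all 12901 tested genes. By DESeq2 they were 0 and 9, against 1425 and 1332. DESeq2 with adjustment called 0 members higher and 3 lower, against 718 and 526 of all tested genes. The 4 members that fell by edgeR were TP53INP1 at -1.10 ± 0.22 (adjusted p = 0.0098, edgeR), PLK2 at -0.60 ± 0.15 (adjusted p = 0.025, edgeR), PPM1D at -0.45 ± 0.13 (adjusted p = 0.036, edgeR) and ZMAT3 at -0.28 ± 0.08 (adjusted p = 0.038, edgeR). All 4 had 2.5 µM libraries that lay below every control, as the library values above show. The 2.5 µM and control libraries did not overlap in 5 of the 33 members (15.2%), against 28.2% of all tested genes. The median over the members was -0.13, against -0.00528 over all tested genes.

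These 4 calls depended on which libraries were included. When 1 library was left out, TP53INP1 lost its call only for control library 1. Without control library 1, the deepest control, 0 members fell (4 at an unadjusted p of 0.05 by edgeR, against 999 of 12705 genes). The log2 fold changes were then -0.87 for TP53INP1, -0.48 for PLK2, -0.36 for PPM1D and -0.26 for ZMAT3. Without 2.5 µM library 3, the shallowest of all, 1 member fell, TP53INP1. Without control library 3, 2 members fell, as they did without 2.5 µM library 1 and without each of the 125 µM libraries. Without control library 2, 6 members fell, DDB2, SPATA18 and XPC joining at -0.58, -0.57 and -0.44, while ZMAT3 no longer passed. Among all tested genes the number that fell moved as well, from 649 of 12901 to 39 of 12705 without control library 1. It was 145 of 13435 without 2.5 µM library 3 and 1045 of 13468 without control library 2. With any other library left out it was 296 to 613. Over all 23 alternatives the call was lost 5 times for TP53INP1, 9 times for PLK2, 13 times for PPM1D and 19 times for ZMAT3.

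Among the other members at 2.5 µM, CDKN1A had -0.28 ± 0.11 (95% interval -0.52 to -0.04) and did not pass after adjustment (adjusted p = 0.12, edgeR). MDM2 had 0.02 ± 0.09, BAX -0.05 ± 0.12 and BBC3 0.08 ± 0.15, and none of these passed. The controls are shared by both comparisons, so the values at the 2 concentrations are set side by side and not correlated. Of the 11 members that fell at 125 µM, all 11 had a mean at 2.5 µM between those of the control and 125 µM groups, as had 3 of the 4 that rose, the exception being TP53I3. The same order held for 88.2% of all 2562 genes that fell at 125 µM and for 81.7% of all 2618 that rose, so most called genes shared it.

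The third comparison set the 2 concentrations against each other. Of the members 2 were higher at 125 µM (6.06%, against 7.48% of all tested genes) and 8 were lower (24.2%, against 7.44%). MDM2 was higher by 0.31 ± 0.09 (adjusted p = 0.026, edgeR) and TP53I3 by 0.57 ± 0.17 (adjusted p = 0.035, edgeR). The lower members were PPM1D at -0.75 ± 0.13 (adjusted p = 0.0019, edgeR), SPATA18 at -0.83 ± 0.18, CCNG2 at -0.72 ± 0.16, DDB2 at -0.55 ± 0.15, BTG1 at -0.48 ± 0.15 and SESN1 at -0.42 ± 0.10, together with CCNG1 and RPS27L. The adjusted p of the lower members ran from 0.0019 for PPM1D to 0.042 for RPS27L.

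CCNG1 and RPS27L had passed neither comparison with the controls. CCNG1 stood at 183, 144 and 184 CPM in controls, 168, 218 and 217 at 2.5 µM and 134, 150.1 and 154 at 125 µM. RPS27L stood at 109, 79.1 and 105 CPM in controls, 87.2, 125 and 107 at 2.5 µM and 80.8, 75.9 and 79.7 at 125 µM. For both, every 2.5 µM library lay above every 125 µM library, while the controls overlapped both groups. The differences were -0.46 ± 0.12 for CCNG1 (adjusted p = 0.018, edgeR) and -0.43 ± 0.13 for RPS27L (adjusted p = 0.042, edgeR). All 10 calls of this comparison were lost in at least 1 alternative. Leaving out 125 µM library 2 or 2.5 µM library 2 left 0 members higher and 2 lower each time. At an unadjusted p of 0.05 edgeR gave 3 and 8, and 4 and 7, there. Over all genes the unadjusted counts were 1399 and 1477 of 12752, and 1496 and 1559 of 12790. Leaving out 125 µM library 1 gave 0 and 3, and leaving out 125 µM library 3 gave 0 and 5. At an unadjusted p of 0.05 edgeR gave 3 and 10, and 5 and 10, for these. Over all genes the unadjusted counts were 1563 and 1617 of 13057, and 1663 and 1737 of 13429. Without 2.5 µM library 3, 1 was higher and 7 were lower.

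The files also divide the reads of each gene into exon and intron reads, and intron reads come mostly from RNA that is not yet spliced. Of the 33 members, 18 had at least 100 intron reads over the 9 libraries. All 18 had a lower mean intron level at 125 µM than in controls, with a median log2 ratio of -0.79, against a median of -0.13 for their exon reads. Over all 6933 tested nuclear genes with as many intron reads, 81.2% had a lower intron level, with a median of -0.46 for introns and 0.01 for exons. The lower intron level was therefore shared by most genes, in the groups whose intron shares are given above.

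Of these 18 members, 5 had fallen on all reads: PPM1D, DDB2, SPATA18, SESN1 and CCNG2. In all 5 the intron levels at 125 µM lay below every control, as they did in 7 of the other 13 members, in 39.4% of all 6933 genes above and in 74.7% of the 1768 of these that fell on all reads. PPM1D went from 4.08 ± 0.462 to 1.28 ± 1.11 CPM in introns (SD, n = 3 each), a log2 ratio of -1.67 against -1.17 in exons. DDB2 went from 14.3 ± 2.49 to 7.73 ± 0.395 CPM in introns, a log2 ratio of -0.89 against -1.02 in exons. DDB2 alone of the 5 had a smaller fall in introns than in exons, and SPATA18 had -1.51 in introns and -1.21 in exons.

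Among the 18 members with at least 100 intron reads, those whose exon level was flat or higher also had a lower mean intron level. CDKN1A had 8.48 ± 2.40 CPM of intron reads in controls and 4.87 ± 0.422 at 125 µM, with no overlap, while its exon level was 84.4 ± 8.84 and 84.9 ± 7.07 CPM (SD, n = 3 each). TNFRSF10B had 9.18 ± 2.18 and 5.75 ± 0.168 CPM in introns, and 222 ± 9.99 and 266 ± 21.2 CPM in exons. BAX had 60 intron reads in the 3 control libraries and 23 at 125 µM, a log2 ratio of -1.65 against -0.10 in exons. MDM2 was the exception in size, with a log2 ratio of -0.01 in introns and 0.35 in exons. These ratios are descriptions without a test. On exon reads alone, edgeR's test called 2 members higher, MDM2 and PLK3, and 13 lower at 125 µM, against 4 and 11 on all reads. Of all 11589 genes tested on exon reads, 2435 were higher and 2360 lower.

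**Figure D4:**
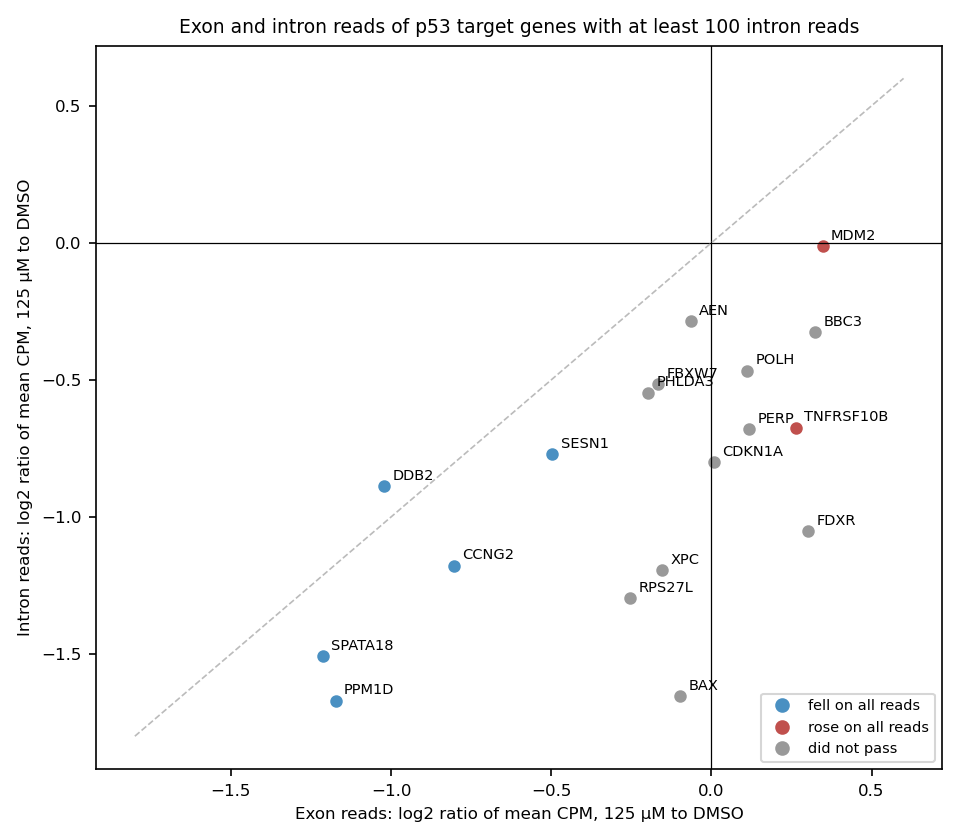
log2 ratio of mean CPM, 125 µM to DMSO, for exon reads (horizontal) and intron reads (vertical) of the 18 p53 target genes with at least 100 intron reads, coloured by the call on all reads, with a dashed line where both are equal. All points lie below 0 on the vertical axis, MDM2 at -0.01, and DDB2 is the point above the dashed line.

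Regulators of p53 formed a further list of 24 genes, of which 22 were tested. MDM4, which inhibits p53 together with MDM2, had -0.09 ± 0.11 (adjusted p = 0.57, edgeR). The amount of p53 protein was not measured here.

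Of the 22 tested regulators, 3 rose and 4 fell at 125 µM (13.6 and 18.2%, against 20.3 and 19.9% of all tested genes), with a median of 0.00335. The histone acetyltransferases EP300 and CREBBP, coactivators of p53, fell, with log2 fold changes of -0.67 ± 0.12 (adjusted p = 0.00044, edgeR) and -0.37 ± 0.11 (adjusted p = 0.013, edgeR). EP300 stood at 148, 113 and 128 CPM in controls, 96.7, 104 and 85.6 at 2.5 µM and 92.8, 77.4 and 72.7 at 125 µM, and all TBOEP libraries lay below all controls. Of kinases upstream of p53, the DNA damage kinase PRKDC rose by 0.31 ± 0.09 (adjusted p = 0.011, edgeR) and the checkpoint kinase CHEK1 by 0.51 ± 0.15 (adjusted p = 0.016, edgeR), the latter in a gene that overlaps the more highly read STT3A. At 2.5 µM, 2 regulators rose and 1 fell (9.09 and 4.55%, against 6.02 and 5.03% of all tested genes) with a median of -0.01. They were CHEK1 at 0.58 ± 0.15, EP300 at -0.44 ± 0.12 and the p53 relative TP73 at 1.15 ± 0.34, the last named after its values were seen. TP73 had few reads, 34 in controls and 102 at 2.5 µM, and these 2 groups overlapped. It overlaps its antisense gene TP73-AS1 and WRAP73, both with more reads (1221 and 1014 against 192). Between the concentrations 0 regulators passed by edgeR, with 1 higher and 2 lower at an unadjusted p of 0.05. Over all 12901 tested genes the unadjusted counts were 1874 and 1958.

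Another 48 names of p53 targets outside the 33 were looked up, and 42 were tested. At 125 µM 6 of them rose and 13 fell (14.3 and 31.0%, against 20.3 and 19.9% of all tested genes), with a median of -0.07. SESN2, a sestrin like SESN1, stood at 19.6, 17.4 and 22.3 CPM in controls, 20.6, 22.4 and 25.9 at 2.5 µM and 44.9, 40.5 and 49.9 at 125 µM. At 125 µM all libraries were well above the rest, and SESN2 rose by 1.18 ± 0.13 (adjusted p = 1.4e-05, edgeR) where SESN1 had changed by -0.54 ± 0.10. DRAM1, a lysosomal protein of autophagy, stood at 165, 119 and 139.6 CPM in controls, 98.0, 137 and 90.5 at 2.5 µM and 61.8, 43.6 and 55.1 at 125 µM. All its 125 µM libraries were below all others, and DRAM1 changed by -1.42 ± 0.17 (adjusted p = 2.6e-05, edgeR).

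Others of these targets that rose at 125 µM were SFN, the 14-3-3 protein that restrains entry into mitosis, by 1.07 ± 0.15, and the secreted factors LIF by 1.17 ± 0.18, GDF15 by 0.76 ± 0.12 and CSF1 by 0.58 ± 0.11. The methyltransferase-like METTL7A and the immediate early gene IER5 fell, with log2 fold changes of -0.80 ± 0.13 and -1.45 ± 0.27. For these 6 genes the adjusted p in edgeR ran from 8.6e-05 for SFN to 0.00074 for IER5. At 2.5 µM 1 of the 42 rose and 3 fell (2.38 and 7.14%, against 6.02 and 5.03% of all tested genes), with a median of -0.03. Between the concentrations 5 were higher and 5 lower (11.9% each, against 7.48 and 7.44%).

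Genes of the late cell cycle that p53 and p21 are known to repress formed the last list, with 16 genes, all tested. At 125 µM 0 rose and 3 fell by edgeR (18.8% lower, against 19.9% of all tested genes), with a median of -0.09. At an unadjusted p of 0.05 edgeR gave 1 higher and 5 lower, against 3160 and 3089 of all 12901 tested genes. TOP2A, the topoisomerase of dividing cells, stood at 311, 330.2 and 332 CPM in controls, 335, 364 and 307 at 2.5 µM and 225, 222 and 229.8 at 125 µM. All 125 µM libraries lay below all others. TOP2A changed by -0.52 ± 0.08 (adjusted p = 0.00022, edgeR), and the mitotic kinases AURKA by -0.32 ± 0.09 (adjusted p = 0.0095, edgeR) and PLK1 by -0.29 ± 0.10 (adjusted p = 0.024, edgeR). PLK1 overlaps ERN2. At 2.5 µM the median was 0.21 and 13 of the 16 values were positive. By edgeR 0 fell and 1 rose (6.25%, against 6.02% of all tested genes). At an unadjusted p of 0.05 edgeR gave 0 lower and 6 higher, against 1759 and 1782 of all 12901 tested genes. The gene that rose after adjustment was CDK1, the kinase that drives mitosis, at 0.68 ± 0.16 (adjusted p = 0.019, edgeR), named after its values were seen. Between the concentrations 5 of the 16 were lower at 125 µM (31.2%, against 7.44% of all tested genes) and 0 higher. At an unadjusted p of 0.05 edgeR gave 9 lower and 0 higher, against 1958 and 1874 of all 12901 tested genes.

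**Figure D5:**
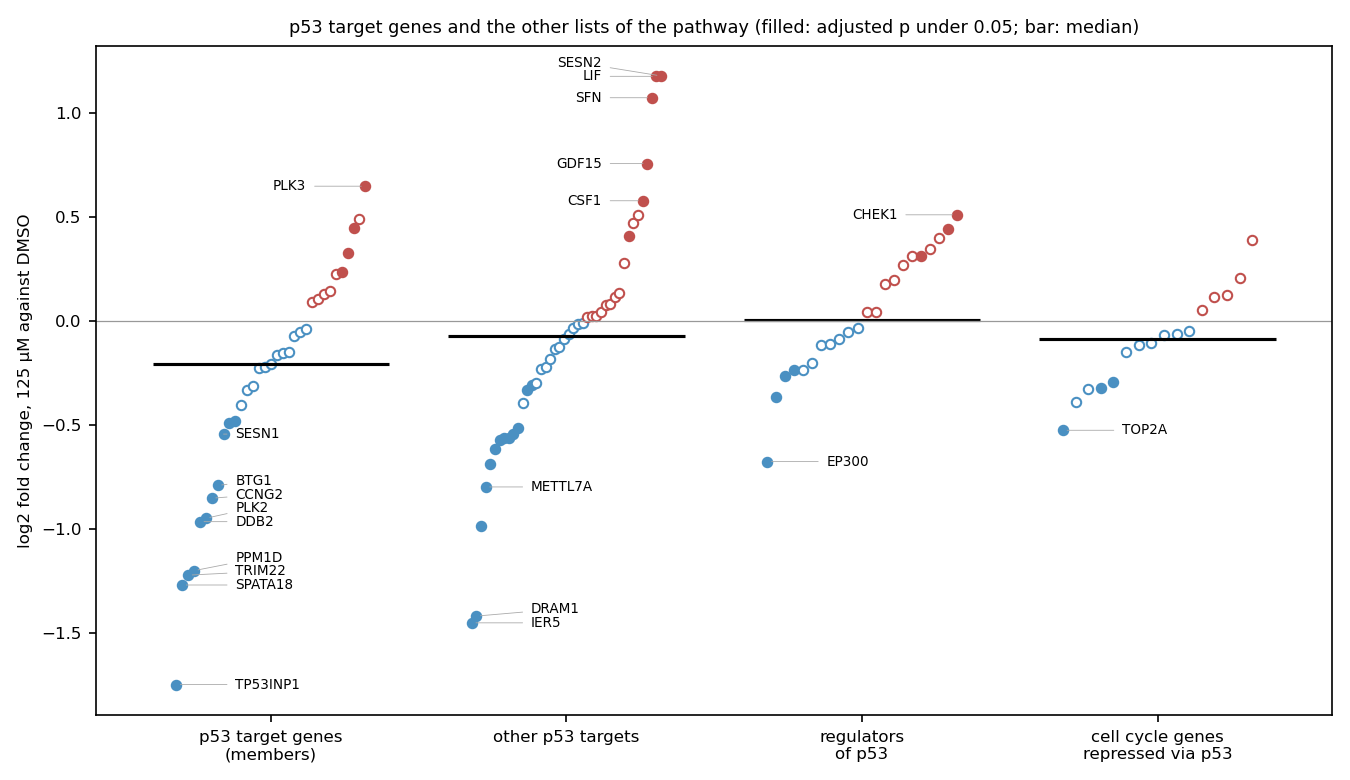
log2 fold change at 125 µM against DMSO of the tested genes of 4 lists, the 33 p53 target genes, 42 other p53 targets, 22 regulators and 16 cell cycle genes, each sorted from low to high, with filled points for an adjusted p under 0.05 and a bar at the median. The medians are -0.20, -0.07, 0.00335 and -0.09, and both lists of targets hold filled points on both sides of 0.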

How the data were processed

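RNA was measured in 9 HepG2 libraries, 3 each at 125 µM TBOEP, 2.5 µM TBOEP and 0.1% DMSO, per the labels. Polyadenylated RNA was made into stranded libraries and sequenced as paired reads of 50 bp, per the labels' protocols. CLC Genomics Workbench was used to align reads to hg19 and the samples were quantile-normalised, per the series' design text. Not given in the sources used here are the software version, the annotation and any use of strand in counting.

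Each deposited file gives raw counts of reads per gene, split into exon and intron reads, per the file headers. It also gives RPKM, which per the file headers is scaled to exon length and depth. A further deposited column of signal holds the quantile-normalised values of the authors. Gene starts were moved by 1 to count from 1, and p53 elements were read from GRCh37, the same build as hg19, where all 33 members lay in the same place in GENCODE.

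Total gene reads were filtered with filterByExpr, scaled by TMM and fitted in edgeR 4.0.16 (R 4.3.3; quasi-likelihood test). All 9 libraries entered in 3 groups with no covariate, with two-sided contrasts and Benjamini-Hochberg adjustment over 12901 genes at 0.05. Depth was 2480964 to 11885877 gene reads and the common biological coefficient of variation 10.0%. The steps were tested on simulated counts. Replicates of a group differed by more than sampling noise (chi-square per degree of freedom 2.39 to 11.5), so each was counted once.

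Alternatives were DESeq2 1.42.0, upper-quartile or no scaling, no filter or a stricter one (1 CPM and 10 reads in 3 libraries), the replicate number as a block, exon or unique reads, only the groups compared, limma 3.58.1 on log2(RPKM + 0.5) and log2(RPKM + 0.1), glmTreat against a 1.2-fold change and each library left out. Chosen after seeing the data were leaving out library 3 of both TBOEP groups at once and limma on log2 of the deposited signal + 0.5. The members and all gene lists were chosen with earlier results of these data known, so their counts are descriptions. All members past a threshold were given, every library for those past it at 125 µM, with CDKN1A, MDM2, BAX and BBC3 always; of the regulators MDM4 and up to 4 more of smallest adjusted p at 125 µM, of other targets up to 8 and of cell cycle genes up to 4. A gene that meets this rule is not reported here.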

Additional observations from a re-analysis of the deposited data

Results flagged for a closer look

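Of the members 3 had opposite signs against the controls at the 2 concentrations and differed between the concentrations in edgeR's quasi-likelihood test. TP53I3 was higher at 125 µM than at 2.5 µM by 0.57 on the log2 scale, with 0.45 ± 0.17 at 125 µM and -0.12 ± 0.18 at 2.5 µM against controls. RPS27L differed by -0.43, with -0.31 ± 0.13 and 0.12 ± 0.13 against controls, and CCNG1 by -0.46, with -0.23 ± 0.12 and 0.23 ± 0.12. Except for TP53I3 at 125 µM, none of these values against controls passed the threshold. The 2.5 µM value of RPS27L changed sign without control library 2 and without 2.5 µM library 2, down to -0.03.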

How the results depend on the processing

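No member called in a comparison changed sign in any alternative. Of the members not called, 3 of 18 changed sign in at least 1 alternative at 125 µM, 11 of 29 at 2.5 µM and 8 of 23 between the concentrations, none of them passing the threshold there; their reported values were at most 0.09, 0.16 and 0.10 from 0 on the log2 scale. At 125 µM against control the members counted 4 higher and 11 lower; 2 were higher under DESeq2, no filter, exon reads, the quantile-normalised signal and the replicate block, and 1 under glmTreat, and leaving out 1 library gave 2 to 4 higher and 10 to 15 lower. Over all genes, 2618 higher and 2562 lower became 1541 and 1542 under glmTreat, and the lower count 1413 and 1393 on RPKM with 0.5 and 0.1 added. On RPKM the share of higher calls was 66.5%, against 50.5%, and the median of all genes shifted to 0.11 with 0.1 added; leaving out 1 library gave 1826 to 2689 and 1731 to 2662.

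At 2.5 µM against control, 4 members fell, and 1 did with only the groups compared, on the signal and under glmTreat. On RPKM with 0.5 or 0.1 added 0 fell. There limma gave 7 at an unadjusted p of 0.05 each time, against 1309 and 1267 of all genes. Without library 3 of both TBOEP groups 0 fell (5 unadjusted, against 1230 of all genes). Leaving out 1 library gave 0 to 6. Over all genes, 776 higher and 649 lower became 462 and 269 with only the groups compared, 153 and 55 on the signal, 159 and 75 under glmTreat, 99 and 26 without library 3 of both TBOEP groups, 171 and 45 on RPKM with 0.5 added, and 0 and 0 with 0.1 added (limma; 2065 and 1267 unadjusted). With no filter 1024 were lower, and leaving out 1 library gave 174 to 1005 and 39 to 1045. The share of higher calls was 54.5%, against 73.6% on the signal and 79.2% on RPKM with 0.5 added.

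Between the concentrations, 2 members were higher and 8 lower. Under DESeq2 0 were higher (4 unadjusted, against 1321 of all genes), as under glmTreat (3 unadjusted, against 973). On RPKM with 0.5 and 0.1 added, 1 was higher and 2 and 1 lower, on the signal 1 and 5, under glmTreat 3 lower, and without library 3 of both TBOEP groups 1 and 5. Leaving out 1 library gave 0 to 3 and 2 to 8. Over all genes 965 and 960 became 634 higher under DESeq2, 577 higher on RPKM with 0.1 added, 302 and 287 lower on RPKM, 465 and 438 on the signal and 377 and 323 under glmTreat, with 445 to 1093 and 354 to 1143 on leaving out 1 library. The share of higher calls was 50.1%, and 68.8 and 66.8% on RPKM. The cause of these shifts was not tested. Deviations of same-numbered libraries from their group means correlated at -0.24 to 0.18. These values did not show that the numbers pair the samples, and with 3 libraries in a group they cannot exclude it. With the replicate block the members counted 2 and 12, 0 and 3, and 3 and 6 in the 3 comparisons. With 3 libraries of unequal depth in a group, members of few reads such as TRIM22 and PMAIP1 were measured least precisely.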
